A study of Homo sapiens with 6 samples.

Results

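The cytosolic ribosomal protein genes code for the protein part of the ribosome outside mitochondria. They were taken as the protein-coding genes of hg38 (GENCODE 44) whose symbol starts with RPL or RPS followed by a digit, with RPLP0, RPLP1, RPLP2, RPSA and FAU added, and with the RPS6K kinases and symbols of numbered "like" copies left out. The rule found 89 of 20033 protein-coding genes on chromosomes 1 to 22, X and Y. Of these, 46 code for proteins of the large subunit and 32 for proteins of the small subunit, and these 78 are called core genes here. The other 11 matched the symbol rule only. They are the paralogs RPL39L, RPL10L, RPL36AL, RPS27L, RPL3L, RPS4Y1 and RPS4Y2, the readthrough genes RPS10-NUDT3, RPL17-C18orf32 and RPL36A-HNRNPH2, and RPS19BP1, whose product binds a ribosomal protein and is not one. A peak was assigned to a gene when its summit lay within 1000 bp of the start of the canonical transcript, and the rule used no measured value.

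Binding was measured by chromatin immunoprecipitation followed by sequencing (ChIP-seq) in 786-O cells, an established renal cell carcinoma line, for 3 proteins with 2 replicate libraries each. HA-DPF3a is the short form of DPF3, which belongs to the SWI/SNF remodelling complex. It carried an HA tag in cells made to overexpress it, and was pulled down with an antibody against the tag after fixation with the crosslinker DSG and then formaldehyde. SMAD4, the common partner of the TGF-β and BMP receptor SMADs, and p300, a histone acetyltransferase, were pulled down with antibodies against the proteins themselves after formaldehyde alone. The labels name no treatment for any group and do not say if the cells of these 2 groups overexpressed DPF3a. Each protein has 1 peak list made from both of its libraries, so no value below has a spread between replicates and no test between samples was possible. Beside each count stands the same count over all protein-coding genes, as a description. Intervals are at 95%, by Wilson's method for shares of genes and exact Poisson for reads, and reflect counting error alone.

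There were 51530 DPF3a peaks, 46367 SMAD4 peaks and 20380 p300 peaks. The genome-wide background of each list corresponded to 15.8 M, 30.4 M and 27.6 M reads, and the lowest peak heights were 11, 14 and 14 reads. Height is the number of overlapping fragments at the summit, and fold enrichment is that height over the local background as the peak caller gave it, each plus 1. Both differ in depth, antibody and fixation between the lists and were read within a list only.

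Ribosomal protein genes are transcribed at high rates in nearly all growing cells, and their products are made in equal numbers for each ribosome. Transcription usually starts at a C followed by a run of pyrimidines. At the head of the mRNA this run, the terminal oligopyrimidine (TOP) tract, places translation under the control of mTOR through LARP1. Around the same start the TCT initiator takes the place of the usual initiator, and sites for ETS factors, YY1 and SP/KLF factors are common in these promoters. p300 acetylates histones at active promoters and enhancers, and SWI/SNF moves or evicts nucleosomes.

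The starts below show this tract, except that of RPL15, which lacks it. Each line gives the hg38 position, then 30 bases before the canonical start and 10 from it, 5′ to 3′ on the gene's strand, with the unbroken pyrimidine run that begins at a C start in capitals. The first 4 genes have peaks of all 3 proteins, RPLP0 and RPL37A have them as well, and RPL11 and RPL15 lack a DPF3a peak.

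RPL24, chr3:101686709-101686748, minus strand: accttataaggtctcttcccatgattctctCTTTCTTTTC
RPL5, chr1:92832010-92832049, plus strand: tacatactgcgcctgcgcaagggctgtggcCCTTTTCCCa
RPS6, chr9:19380227-19380266, minus strand: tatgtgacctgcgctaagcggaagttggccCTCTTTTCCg
RPS19, chr19:41860225-41860264, plus strand: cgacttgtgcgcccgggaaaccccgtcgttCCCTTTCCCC
RPLP0, chr12:120201102-120201141, minus strand: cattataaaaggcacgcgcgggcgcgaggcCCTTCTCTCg
RPL37A, chr2:216498814-216498853, plus strand: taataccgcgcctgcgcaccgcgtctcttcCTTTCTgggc
RPL11, chr1:23691776-23691815, plus strand: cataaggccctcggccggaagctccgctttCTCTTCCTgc
RPL15, chr3:23917102-23917141, plus strand: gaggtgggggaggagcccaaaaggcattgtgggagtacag

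RPS9 and RPS18, core genes without a peak in any list, are shown next, because their starts are also copied on alternate sequences of the reference.

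RPS9, chr19:54200828-54200867, plus strand: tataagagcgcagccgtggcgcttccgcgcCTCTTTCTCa
RPS18, chr6:33272045-33272084, plus strand: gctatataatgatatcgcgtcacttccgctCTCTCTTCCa

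A C followed by at least 4 pyrimidines stood at the annotated start of 60 of the 89 members (67.4%) and of 59 of the 78 core genes (75.6%). Over all protein-coding genes the share was 4.59%, and over those with a CpG-rich start it was 5.06%. RPL15 is counted among the starts without the tract. The mitochondrial ribosomal proteins, which are made from nuclear genes of another origin, had such a start in 5 of 78 genes (6.41%), and the translation factors, whose mRNAs are known TOP mRNAs, in 19 of 21 (90.5%).

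SMAD4 peaks stood at nearly all ribosomal protein genes. Of the 89 members, 81 had a SMAD4 summit within 1000 bp of the start (91%, interval 83.3 to 95.4%), against a background of 57.8% of all protein-coding genes. A CpG-rich start, with at least 50% GC and a CpG ratio of at least 0.6 in the surrounding 1000 bp, was present in 80 members, and 93.8% of those had a SMAD4 peak against 79.5% of the CpG-rich genes that are no members. The assignment hardly used the outer part of the window. The outermost SMAD4 summits were those of RPL17-C18orf32 at −852 bp and RPL7 at −706 bp, and with a limit of 2500 bp the count stayed at 81. All 46 large-subunit genes and 29 of 32 small-subunit genes had one. RPS9 and RPS18 were among the 3 exceptions of the core genes.

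p300 peaks were found at 55 members (61.8%, interval 51.4 to 71.2%), against a background of 39.3%. Among CpG-rich starts the shares were 65% for members (interval 54.1 to 74.5%) and 55.9% for other genes. The interval of the members held the share of the others. In members without another coding start within 1000 bp the share was 55.2% (interval 43.4 to 66.5%). It was 52.9% in CpG-rich genes of that kind that are no members, and 81.8% (interval 61.5 to 92.7%) in members with such a neighbour. The intervals of the subunits overlapped, with 30 of 46 large-subunit genes (65.2%, interval 50.8 to 77.3%) and 19 of 32 small-subunit genes (59.4%, interval 42.3 to 74.5%).

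DPF3a peaks were found at 40 members (44.9%, interval 35 to 55.3%), close to the background of 41.8%. Among CpG-rich starts, 48.8% of the members (interval 38.1 to 59.5%) and 58.2% of the other genes had a DPF3a peak. The share of the members was lower, and its interval held the share of the other genes. The large subunit contributed 22 of 46 genes and the small subunit 15 of 32. Against all protein-coding genes the members thus stood above the background for SMAD4 and p300 and near it for DPF3a. For p300 the gap was smaller among CpG-rich starts, and small without another coding start nearby. No test was made of these differences.

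**Figure D1:**
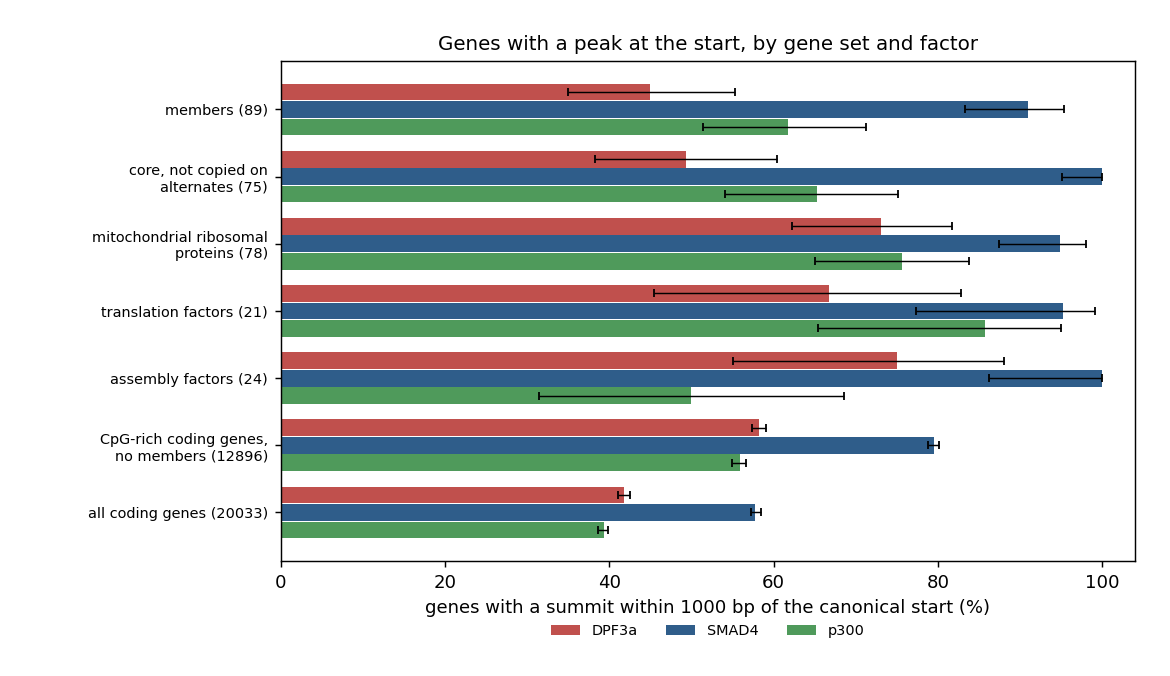
The horizontal axis gives the percentage of genes with a summit within 1000 bp of the canonical start, the vertical axis the gene set with its number of genes, and the colours the 3 proteins. Bars start at 0, and whiskers are Wilson intervals at 95%. The SMAD4 bar of the members ends at 91% and their DPF3a bar at 44.9%, against 57.8% and 41.8% for all coding genes.

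RPS9 and RPS18 had no peak of any protein. Of the 31-base words in the 1000 bp around their starts, 93.9% and 100% also occurred on alternate sequences of hg38. The lists hold 9, 9 and 5 peaks on alternate sequences, so the authors' reference contained them, and reads of mapping quality under 30, which includes reads that fit several places equally well, were removed. Over all protein-coding genes, 835 starts had at least 50% of their words copied in this way. Of those, 1 had a DPF3a peak, 7 a SMAD4 peak and 2 a p300 peak, and 828 had none. With the 3 core genes of copied starts left out, a setting chosen after the data were seen, all 75 remaining core genes had a SMAD4 peak (100%, interval 95.1 to 100%), against 81.7% of the CpG-rich genes that are no members and not copied. In the same 75 genes, 49 had a p300 peak (65.3%, interval 54.1 to 75.1%) and 37 a DPF3a peak (49.3%, interval 38.3 to 60.4%). These intervals held the 57.4% and 59.8% of the CpG-rich genes that are no members and not copied. The part of the copied sequence in the missing peaks of RPS9 and RPS18 was not tested.

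The other 5 members without any peak lie outside the core list. RPL39L and RPL10L are paralogs known for expression in testis, RPL3L is expressed in heart and skeletal muscle, and RPS4Y1 and RPS4Y2 are Y-linked copies of RPS4X. RPS4X itself, the X-linked small-subunit gene, had a SMAD4 peak of 70 reads at +37 bp and a p300 peak of 21 reads at +313 bp, where + is downstream of the start. Among the remaining members outside the core list, RPL36AL, an intronless paralog of RPL36A, and RPS27L, a p53-responsive paralog of RPS27, had peaks of all 3 proteins. The coding gene MGAT2 also starts within 1000 bp of RPL36AL. RPS27L had 28 reads for DPF3a at +331 bp, 63 for SMAD4 at −156 bp and 35 for p300 at +102 bp. RPS19BP1 had a SMAD4 peak of 85 reads at −24 bp and a p300 peak of 28 reads at +180 bp. The 3 readthrough genes carried the peaks of RPS10, RPL17 and RPL36A and add no site of their own, so that the members rest on 40 distinct DPF3a peaks, 78 SMAD4 peaks and 54 p300 peaks.

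All DPF3a and p300 peaks of members lay at genes that also had a SMAD4 peak. All 3 proteins were present at 29 members (32.6%), close to the background of 31%, and below the 45.2% of CpG-rich genes that are no members. SMAD4 and p300 without DPF3a were present at 26 members (29.2%), against 7.42% of all protein-coding genes. DPF3a and SMAD4 without p300 were found at 11 members (12.4% against 10.1%), and SMAD4 alone at 15 (16.9% against 9.37%). Over all protein-coding genes, 117 had DPF3a alone (0.584%), 135 p300 alone (0.674%) and 37 those 2 without SMAD4 (0.185%). No member showed these states, which were rare over all genes as well. There, 8225 of 8379 genes with a DPF3a peak and 7693 of 7865 genes with a p300 peak also had a SMAD4 peak. The SMAD4-only members include RPL3, RPS27A and FAU. RPL3 lies next to the peptidyl transferase centre and had 129 SMAD4 reads at +46 bp. RPS27A and FAU, which code for ribosomal proteins fused to ubiquitin and to a ubiquitin-like protein, had 56 reads at +58 bp and 72 reads at −109 bp.

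The summits of the 3 proteins stood at different places relative to the start. SMAD4 summits were centred on it, with a median of 11 bp downstream (quartiles −99 and 48), and 58 of 81 (71.6%) were within 100 bp of it, against 44.5% over all protein-coding genes with a SMAD4 peak. DPF3a summits of members had a median of −233 bp (quartiles −349.2 and −42.5), and 31 of 40 were upstream (77.5%), against a median of −17 bp and 52.1% upstream over all genes with a DPF3a peak. p300 summits had a median of 120 bp downstream (quartiles −161.5 and 197.5), near the 102 bp of all genes with a p300 peak. Of these summits 38 of 55 (69.1%) were downstream, near the 64.5% over all such genes. Positions were also measured from the nearest annotated start of the same gene in place of the canonical one. The p300 median was then 30 bp (36 bp over all genes), with 34 of 55 downstream (61.8% against 59.8%). The DPF3a median was −189.5 bp with 30 of 40 upstream (75% against 54%), and the SMAD4 median was 1 bp. In the large subunit 20 of 22 DPF3a summits were upstream (90.9%), and in the small subunit 10 of 15 (66.7%).

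**Figure D2:**
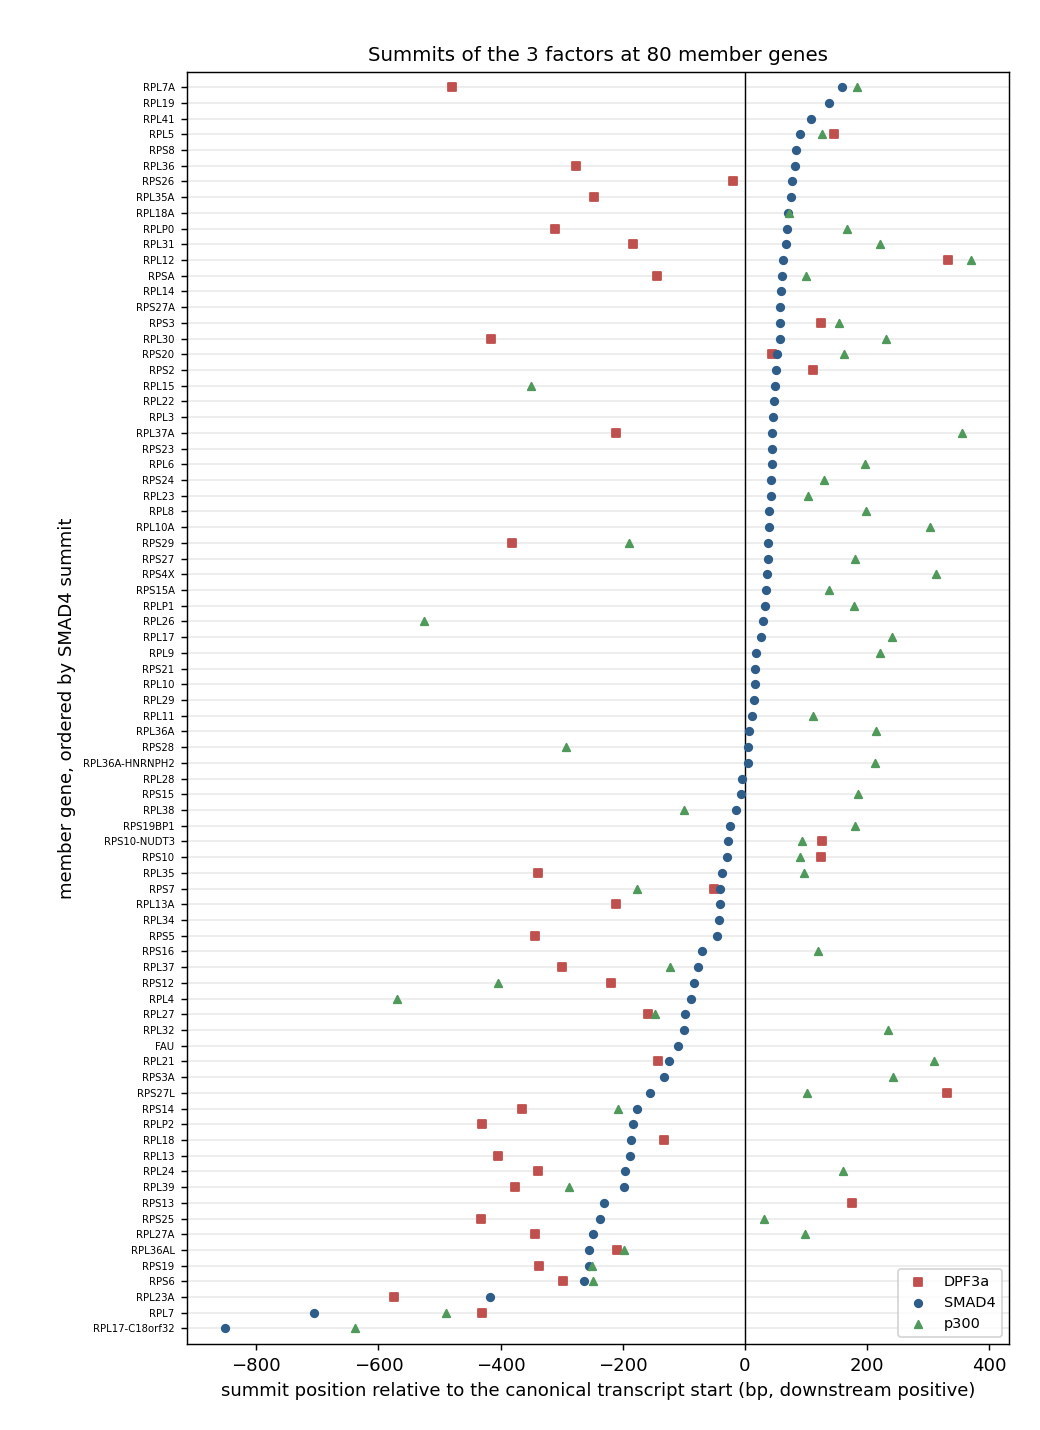
Each row is one of 80 of the 81 members with a SMAD4 peak, ordered by its SMAD4 summit, and the horizontal axis is the summit position relative to the canonical start in bp, with downstream positive. Circles are SMAD4, squares DPF3a and triangles p300. The SMAD4 summits run close to the vertical line at 0 (58 of 81 within 100 bp), most DPF3a squares lie to its left (31 of 40) and most p300 triangles to its right (38 of 55).

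Within genes that had both peaks, the SMAD4 summit was downstream of the DPF3a summit in 29 of 40 members (72.5%), by a median of 139 bp, against 50.9% and 3 bp over all protein-coding genes. The p300 summit was downstream of the SMAD4 summit in 43 of 55 members (78.2%, median 121 bp), against 62.8% and 53 bp. The p300 summit was downstream of the DPF3a summit in 22 of 29 members (75.9%, median 117 bp), against 58.9% and 38 bp. Neighbouring genes touch this result. Another coding gene starts within 1000 bp of 22 members. These include RPS10, RPL17, RPL36A and their readthrough genes, which were counted as neighbours of each other. In the 67 members without another coding start SMAD4 was downstream of DPF3a in 25 of 30 (83.3%). The share was 51.3% among other CpG-rich genes without such a neighbour. Counting every annotated transcript start, 16 of 40 DPF3a summits, 11 of 81 SMAD4 summits and 9 of 55 p300 summits were nearer to a start of another gene. The remaining 24 DPF3a summits had a median of −151 bp, and 16 of those 24 were upstream. The counts by nearest start have no background over all protein-coding genes, so they cannot be called particular to the members. The part of these neighbouring starts in the DPF3a position was not tested.

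**Figure D3:**
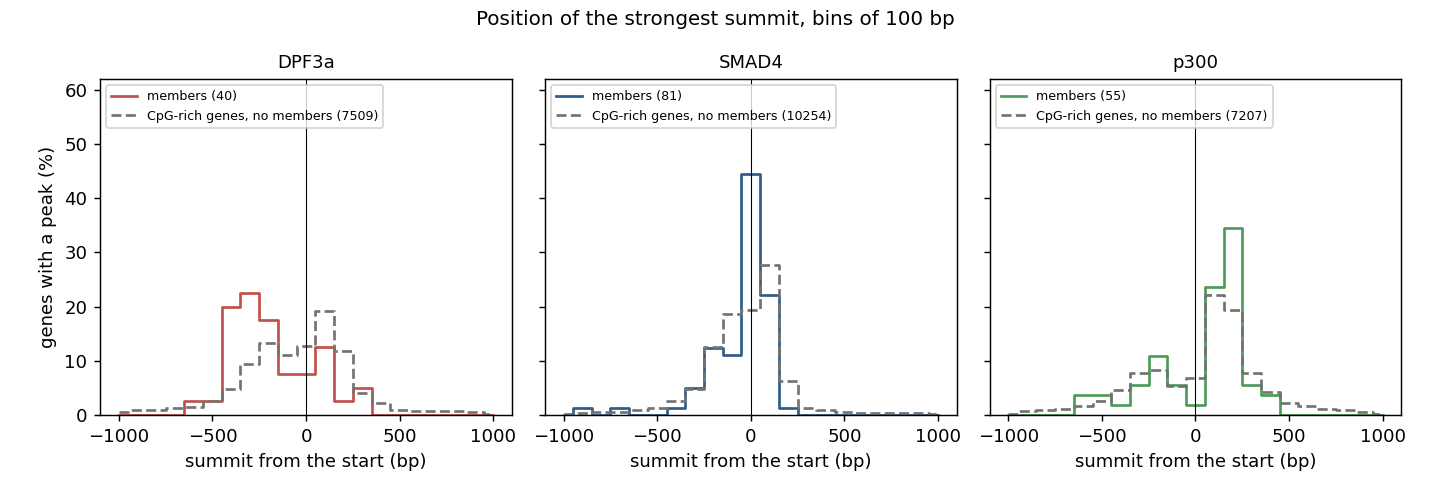
The horizontal axes give the position of the strongest summit relative to the canonical start in bp, in bins of 100 bp, and the vertical axis the percentage of genes with a peak. Coloured lines are members, dashed grey lines CpG-rich genes that are no members, with the number of genes in brackets. The bin around the start holds 44.44% of the members' SMAD4 summits and 19.31% of those of the other genes. The bin around 200 bp downstream holds 34.55% and 19.36% of the p300 summits, and the bin around 100 bp downstream 23.64% and 22.17%. In all, 69.1% and 64.3% of the p300 summits lie downstream.

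RPS6, the small-subunit protein phosphorylated by S6 kinases, had the 3 summits closest together, within 49 bp. They stood at −298 bp for DPF3a (24 reads), −263 bp for SMAD4 (91 reads) and −249 bp for p300 (28 reads). It also had the highest product of the fold enrichment percentiles within the 3 lists, 46.8 in that of DPF3a, 66.8 in that of SMAD4 and 85.1 in that of p300. All 3 summits are upstream of the tract shown above.

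RPL5 and RPL36AL followed, with the 3 summits within 56 and 57 bp. RPL5, which with RPL11 can bind the p53 regulator MDM2 outside the ribosome, differed from RPS6 in that its summits were downstream of the start. They stood at +90 bp for SMAD4, +126 bp for p300 and +146 bp for DPF3a, while those of RPL36AL were upstream, from −255 to −198 bp. Another coding gene, MGAT2, starts within 1000 bp of RPL36AL, and which of the 2 genes these peaks belong to was not tested. Over the 29 members with all 3 peaks the span of the summits ran from 49 to 663 bp, with a median of 275 bp, and 12 were within 200 bp. The spans have no background over all protein-coding genes and cannot be called particular to the members.

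Peaks counted as shared when they overlapped by at least 0.5 of both. DPF3a and SMAD4 peaks were shared at 24 members, 60% of the 40 with both, against 79.9% of all protein-coding genes with both. These are 27% of all members, and the background is 32.8%. SMAD4 and p300 peaks were shared at 40 members, 72.7% of 55 against 81.2%, or 44.9% of all members with a background of 31.2%. DPF3a and p300 peaks were shared at 19 members, 65.5% of 29 against 75.3%, or 21.3% of all members with a background of 23.5%. All 3 peaks were mutually shared at 14 members (15.7%), against 20.2% of all protein-coding genes and 38 of the 78 mitochondrial ribosomal protein genes (48.7%). These shares carry no test.

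SMAD4 heights at members ran from 39 to 169 reads, with a median of 77 over a local background of 10.42 reads. The medians over all protein-coding genes with a peak were 70 and 7.78 reads. The median fold enrichment of members was thus lower, 7.304 (quartiles 5.892 and 8.592) against 7.942, while their height was larger. In −log10 q, which rises with height at a given ratio, the members had a median of 41.22 against 37.76. RPL24, a large-subunit protein at the face between the subunits, had the highest fold enrichment, 12.74, with 160 reads (interval 136.2 to 186.8) over a background of 11.64. RPL5 followed with 11.55 and 105 reads, and RPS26, a small-subunit protein near the mRNA exit, with 11.08 and 112 reads. Among the lowest were RPL19 with 4.017 and 55 reads, and RPL23A with 4.272 and 87 reads. RPL23A had more reads than the median member, over a local background of 19.6 reads. The ratios of 24 of the 81 members had counting intervals that did not hold the median, so members differed by more than counting error, though not with any knowledge of the replicate error.

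The strong SMAD4 site of RPL24 lay at −196 bp, with a DPF3a summit of 32 reads at −339 bp and a p300 summit of 31 reads at +160 bp. Its promoter was the only one of the members with a match to the AP-1 sequence given below.

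DPF3a peaks of members were low within their list. Heights ran from 13 to 45 reads with a median of 20, against 21 over all genes with a peak. The median fold enrichment was 5.049 (quartiles 4.504 and 5.651) against 5.579. The median member stood at the percentile 17.12 of the whole DPF3a list, against 29.32 over all genes with a peak. The median percentile was 17.99 for the translation factors and 31.84 for the mitochondrial ribosomal proteins. The highest were RPL37A with 7.203 (33 reads at −211 bp), RPL24 with 7.112 (32 reads) and RPL18 with 6.936 (23 reads at −132 bp), all of the large subunit. The lowest were RPS2 with 3.737 (20 reads at +112 bp), RPL30 with 4.016 (19 reads at −416 bp) and RPL13 with 4.207 (25 reads at −404 bp). The counting intervals of all 40 members held the median of 5.049, so the order of the members in this list is not resolved at this depth.

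p300 peaks of members had heights from 16 to 63 reads and a median of 31, against 28 over all genes with a peak. Their median fold enrichment was 4.478 (quartiles 3.8 and 5.326) against 4.79. RPL15 with 7.168 (39 reads at −350 bp), RPS29 with 6.475 (35 reads at −190 bp) and RPL27 with 6.413 (63 reads at −147 bp) were highest. Their summits were upstream of the canonical start, unlike those of most members. The summits of RPL15 and RPS29 still lay within the annotated span of the gene, and that of RPL27 lay next to its first annotated base. Another coding gene, NKIRAS1, starts within 1000 bp of RPL15. RPL7A with 2.868 (38 reads), RPL8 with 2.997 (40 reads) and RPS15 with 3.282 (37 reads) were lowest, with summits at +183, +198 and +185 bp. Their heights were near the 39 reads of RPL15, over local backgrounds of 12.6, 12.68 and 10.6 reads against 4.58. Counting intervals left out the median in 5 members: RPL15, RPS29, RPL27, RPL8 and RPL7A.

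**Figure D4:**
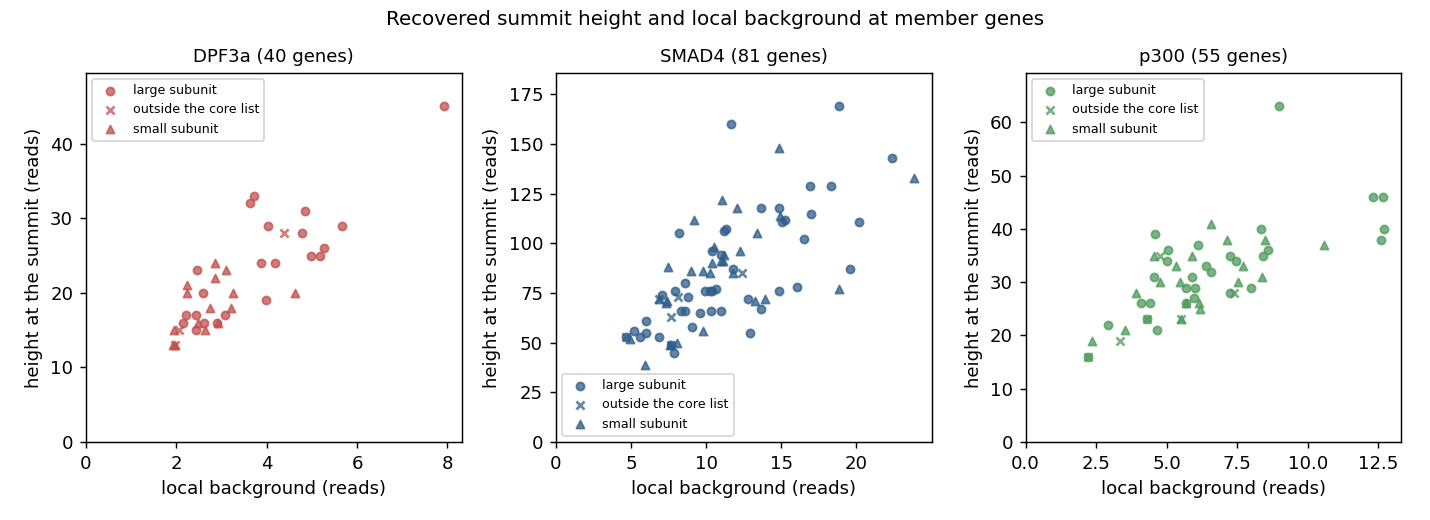
Each point is a member with a peak, with its local background in reads on the horizontal axis and its height at the summit in reads on the vertical axis, in a panel for each protein. Circles are large-subunit genes, triangles small-subunit genes and crosses members outside the core list. SMAD4 heights reach 169 reads, while DPF3a heights end at 45 and p300 heights at 63, and higher points lie over higher backgrounds.

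The acidic stalk of the large subunit, which recruits the GTPase factors of translation, is built from RPLP0, RPLP1 and RPLP2. RPLP0 had peaks of all 3 proteins, with 24 reads for DPF3a at −311 bp, 118 for SMAD4 at +69 bp and 34 for p300 at +168 bp. RPLP1 lacked a DPF3a peak and had 94 SMAD4 reads at +33 bp and 27 p300 reads at +178 bp. RPLP2 lacked a p300 peak and had 29 DPF3a reads at −431 bp and 115 SMAD4 reads at −183 bp. The 3 genes of this one structure thus had 3 different sets of proteins.

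RPL5 and RPL11, partners in the same complex, also differed in their called peaks. RPL5 had 17 DPF3a reads, 105 SMAD4 reads and 36 p300 reads, and RPL11 had 74 SMAD4 reads at +11 bp, 37 p300 reads at +112 bp and no DPF3a peak. RPS19 and RPS14, small-subunit genes known for their loss in inherited and acquired anaemias, both had the 3 proteins upstream. In RPS19 the summits were at −337 bp for DPF3a (23 reads), −256 bp for SMAD4 (98 reads) and −250 bp for p300 (26 reads). In RPS14 they were at −365 bp (20 reads), −176 bp (122 reads) and −208 bp (33 reads). RPS3, at the mRNA entry of the small subunit, had them downstream, at +124 bp for DPF3a (15 reads), +57 bp for SMAD4 (88 reads) and +154 bp for p300 (30 reads). RPSA, the laminin receptor, had 13 DPF3a reads at −144 bp, 71 SMAD4 reads at +60 bp and 33 p300 reads at +100 bp.

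After RPS6, the members with the highest product of the 3 percentiles were RPS20, RPL21, RPS29 and RPL24. RPS20 stood at the percentiles 36.4 for DPF3a, 83.8 for SMAD4 and 77.9 for p300, and RPL21 at 29.5, 81.8 and 84.7. RPS29 had its high value in the p300 list (92.2, with 51.2 and 42.6 in the others) and RPL24 in the SMAD4 list (96.9, with 55.9 and 37). The highest percentile of any member in the DPF3a list was 57, at RPL37A.

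SMAD4 height was also set beside the presence of DPF3a. The 40 members with a DPF3a peak had a median of 89 SMAD4 reads (quartiles 72.75 and 111.2), and the 41 members with SMAD4 and no DPF3a had 72 (quartiles 55 and 87). The local background was alike, 10.79 and 10.36 reads. A p300 peak was present at 29 of the first (72.5%) and 26 of the second (63.4%). Over all protein-coding genes, those with DPF3a and SMAD4 numbered 6207 with p300 and 2018 without it. Those with SMAD4 and no DPF3a numbered 1486 with p300 and 1878 without it, so the split by DPF3a was wider there than in the members. The SMAD4 heights of all genes split in this way are not given here. The SMAD4 summit had a median of −43 bp in the first and 27 bp in the second. These are counts over genes of the same lists and carry no test.

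The type of start was set beside the peaks as well. Among core genes with a C and at least 4 pyrimidines, 33 of 59 had a DPF3a peak (55.9%, interval 43.3 to 67.8%), and among core genes with other starts 4 of 19 had one (21.1%, interval 8.51 to 43.3%). The intervals meet at 43.3%. Over all protein-coding genes the share was 41.8%, and over those with a CpG-rich start it was 58.2%, which the interval of the first group held. The shares of other genes with the same type of start are not given, so the split cannot be called particular to the members. The shares with a SMAD4 peak were 96.6% and 94.7%, with a background of 57.8% over all protein-coding genes. Those with a p300 peak were 61% and 68.4%, with a background of 39.3%. No test of these differences was made.

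The promoters were searched for known sites from 250 bases before to 50 bases from the start, on both strands. The ETS sequence CCGGAAG was present in 29 members (32.6%), against 14.1% of all protein-coding genes and 19.1% of those with a CpG-rich start. The YY1 sequence AAGATGGC was present in 11 members (12.4% against 4.04%, and 5.32% with a CpG-rich start), among them RPL24, RPL21, RPS3 and FAU. Both sequences were more frequent in the mitochondrial ribosomal protein genes, with ETS in 41% and YY1 in 28.2%. GGGCGG, the SP/KLF sequence, was found in 55 members (61.8%), against 61.3% of all genes and 80.5% of those with a CpG-rich start. The AP-1 sequence TGACTCA or TGAGTCA was in 1 member, RPL24 (1.12% against 3.57%), and the SMAD palindrome GTCTAGAC was in 0 members and 0.21% of all genes. NRF1 (GCATGCGC) was in 7 members (7.87% against 4.27% of all genes), CRE (TGACGTCA) in 4 (4.49% against 2.69%) and the E-box CACGTG in 5 (5.62% against 8.76%). Within 50 bp of the summit, 3 of 40 distinct DPF3a peaks of members held GGGCGG (7.5%). The share was 35.3% of the DPF3a peaks at other protein-coding starts and 8.28% of the whole DPF3a list. For SMAD4 it was 15 of 78 (19.2%) against 38.2% at other starts and 13.8% of the whole list. For p300 it was 15 of 54 (27.8%) against 31.6% and 16.2%. The DPF3a summits of members had a median of −233 bp, against −17 bp over all genes, so these windows cover other parts of the promoter. The part of this position in the shares was not tested. AP-1 was found at 2 of the 40 DPF3a peaks (5%), against 3.12% of the DPF3a peaks at other protein-coding starts and 22% of the whole DPF3a list. A match is a description of the letters and not a measured site.

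Other genes of protein synthesis give the setting. Of the 78 mitochondrial ribosomal protein genes, 57 had a DPF3a peak (73.1%, interval 62.3 to 81.7%), 74 a SMAD4 peak (94.9%) and 59 a p300 peak (75.6%). Their DPF3a share lay above that of the cytosolic genes, 44.9%, whose interval ended at 55.3%, and their summits were centred nearer to the start, with a median of −42 bp for DPF3a. All 3 proteins were present at 49 of them (62.8%, against 32.6% of the cytosolic genes). MRPS16 and MRPS24 led in the DPF3a list with fold enrichments of 10.04 and 8.764, MRPL38 and MRPS31 in the SMAD4 list with 14.27 and 13.15, and MRPS14 and MRPL44 in the p300 list with 11.03 and 8.952. Of 21 cytosolic translation factors 14 had DPF3a, 20 SMAD4 and 18 p300. EIF3F and EIF4A2 led for DPF3a (6.746 and 6.667), EIF4B and EIF3M for SMAD4 (9.88 and 9.774), and EIF3E and EIF3H for p300 (11.91 and 6.897). Of 24 ribosome assembly factors 18 had DPF3a, 24 SMAD4 and 12 p300. SBDS and BRIX1 led for DPF3a (9.459 and 7), EFL1 and BRIX1 for SMAD4 (11.5 and 11.45), and RIOK1 and EFL1 for p300 (7.107 and 6.878).

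Beyond 1000 bp from the start, the gene bodies of members held 21 DPF3a peaks in 12 members (13.5%), 23 SMAD4 peaks in 14 (15.7%) and 10 p300 peaks in 10 (11.2%), and none was in a coding exon of the canonical transcript. The backgrounds over all protein-coding genes were 40.5%, 37.5% and 21.6%, in genes with a median length of 27471 bp against 5548 bp for the members. The DPF3a peak of highest fold enrichment among these was within the annotated span of RPL37A, 78840 bp downstream of the start. It lay outside the exons of the canonical transcript, with 34 reads and a fold enrichment of 10.8, above that of every member's start. A SMAD4 peak with 41 reads and 11.23 stood at 78864 bp. In RPS3 a pair of DPF3a (32 reads, 8.871) and SMAD4 (34 reads, 6.119) stood at 19673 and 19586 bp. Whether such peaks lay in introns was not established. Which gene such distant peaks belong to was not tested.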

How the data were processed

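ChIP-seq peak lists of HA-DPF3a, SMAD4 and p300 in 786-O cells were analysed, 1 list for each group of 2 libraries named in the sample titles. The authors' methods describe adapter trimming, mapping to hg38 with Bowtie2 (version 2.3.5.1), removal of duplicates, of mitochondrial reads and of reads with a mapping quality under 30, and peak calling with MACS2 (version 2.2.5). How the 2 libraries of a list were combined, and whether a control library was used, is not given in the sources used here. The authors' deposited score is −log10 q times 10, rounded down, and scores over 50 were kept. The deposited fold enrichment is a ratio of height to local background, each plus 1, and −log10 values of p and q were deposited beside it.

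Heights and backgrounds in reads were recovered from fold enrichment and −log10 p, with errors in −log10 p of at most 0.00086. The depths given assume 200 bp fragments and 2.7 Gb of effective genome. From which library the local background was taken is likewise not given, so a correction for starts rich in reads without binding cannot be assumed. Starts, GC, CpG and words of 31 bases came from hg38 with GENCODE 44, and the sequences are from that build. Where a gene had several peaks, the one of highest fold enrichment was used. The code was tested on planted peaks. Figures were drawn with matplotlib (version 3.10.9) and statistics made with scipy (version 1.17.1).

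The members and gene lists were chosen with earlier results of these data known. Named with values were the members without any peak, the 3 highest and 3 lowest fold enrichments per list, the 5 highest products of percentiles, the 3 closest groups of summits, the members outside the core list, 13 fixed genes, and the 2 highest genes per list of each comparison set. RPS4X, the gene-body peaks and the groups by start type were described after their values were seen. Some items are not reported here.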

Additional observations from a re-analysis of the deposited data

How the results depend on the processing

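The counts at a score over 50 depended on that limit for DPF3a and p300 and not for SMAD4. With scores over 100, 13 members kept a DPF3a peak, 15 a p300 peak and 5 all 3, and shared pairs numbered 11 for DPF3a and SMAD4, 15 for SMAD4 and p300 and 5 for DPF3a and p300. With scores over 200, 0 members had a DPF3a peak, 1 a p300 peak and 0 all 3, while 78 had a SMAD4 peak (87.6%), beside 2.57% for DPF3a, 1.09% for p300 and 47.8% for SMAD4 over all protein-coding genes. At a score over 100 the shares over all protein-coding genes were 17.2% for DPF3a, 54.9% for SMAD4 and 13% for p300, beside 14.6%, 91% and 16.9% of the members. When the peak had to overlap the start itself, 23 members had a DPF3a peak and 17 all 3. With an overlap of 1 bp, 40 members shared DPF3a and SMAD4 peaks. Windows of 500 and 2500 bp gave 39 and 44 members with a DPF3a peak, 79 and 81 with SMAD4 and 52 and 55 with p300. At these other settings no background is given for all 3 proteins, shared pairs, peaks overlapping the start or the windows. Of 63 alternative values 48 stayed within 1.5 times a count, or within the quartiles of a median, and 15 moved. Leaving out members whose starts are copied on alternate sequences was added after the data were seen. No paired analysis was possible because the lists pool both libraries of a factor, and for the same reason no replicate could be left out. Median heights of members were 20 reads for DPF3a and 31 for p300, beside lowest heights of 11 and 14 in those lists, so their counting error is large. The median p300 position moved from 120 to 30 bp with the nearest annotated start of the gene.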
